A study of Sus scrofa with 6 samples.

Results

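In the pig, 6 genes of the mitochondrial genome encode subunits of respiratory complexes III, IV and V, namely CYTB in complex III, COX1, COX2 and COX3 in complex IV, and ATP6 and ATP8 in complex V. They were picked out by gene symbol and not by a measured value, though with earlier results of these data known. All 6 were present among the 29861 genes of the deposited expression table. The same table holds 13 protein-coding genes of the mitochondrial genome, and the remaining 7 encode complex I subunits. RNA-seq was carried out on control, heat-stressed and NMN-supplemented oocytes, with 2 samples per group. NMN (nicotinamide mononucleotide) is a precursor of NAD+, and the study asked how it acts on oocytes exposed to heat. Control oocytes were cultured without heat or NMN, the labels give heat stress as the treatment of the second group and heat stress with NMN as that of the third, and every sample carries the time of 24 hours. The labels place all samples at the germinal vesicle (GV) stage, whereas the methods describe collection at metaphase II, which could not be settled from the values. According to the methods, the oocytes were pooled from abattoir-derived ovaries and matured in vitro with their cumulus cells. Breed and age of the donors are not given in the sources used here, nor is the NMN dose of the sequenced group. Nothing in the labels says that samples of a group came from separate cultures, so P-values measure the spread between these samples, which may be technical.

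Complex III passes electrons from ubiquinol to cytochrome c, complex IV passes them on to oxygen, and complex V uses the resulting proton gradient to make ATP. The subunits of these complexes that mitochondrial DNA encodes are translated inside the mitochondrion. This compact, maternally inherited genome is transcribed as long precursors, from which the mRNAs are released largely by excision of the tRNAs between them. Oocytes hold very large stocks of mitochondria, and the embryo depends on them until it replicates its own.

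All 6 genes lie on the forward strand of the mitochondrial genome (MT) in the RefSeq annotation of Sscrofa11.1, each with 1 exon and an ATG start. COX1 occupies MT:6511-8055 with 1545 nt, COX2 MT:8203-8890 with 688 nt and CYTB MT:15342-16481 with 1140 nt. ATP8 (MT:8959-9162, 204 nt), ATP6 (MT:9120-9800, 681 nt) and COX3 (MT:9800-10583, 784 nt) adjoin each other without a tRNA between them, and the deposited table gives these 3 genes 1 common locus. ATP8 is shown in full because 43 of its bases (21.1%) also belong to ATP6, so that fragments from there fit either gene. Capitals mark the overlap, which opens with the start codon of ATP6 and closes with the stop codon of ATP8.
ATP8: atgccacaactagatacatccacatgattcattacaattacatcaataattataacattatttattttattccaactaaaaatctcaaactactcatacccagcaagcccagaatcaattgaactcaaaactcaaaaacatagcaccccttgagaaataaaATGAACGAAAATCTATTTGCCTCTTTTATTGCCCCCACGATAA

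The following windows of 30 bases show how the coding sequences end. At the junction of ATP6 and COX3 (MT:9785-9814), the capital marks the 1 base that both genes share, the last of the ATP6 stop codon and the first of the COX3 start codon. In the others, capitals mark the last annotated coding bases, which form a whole stop codon in COX1 (MT:8036-8065) and CYTB (MT:16462-16491). COX2 (MT:8871-8900) and COX3 (MT:10564-10593) end on a lone T that is turned into a stop codon by added A residues, and a tRNA gene starts at the next base.
ATP6 and COX3 junction: acacgacaatacataAtgacccaccaaaca
COX1 end: catatatcaacctaaaaTAAgcataagaaa
COX2 end: aacatcaatattaacaggtTcattgagaag
COX3 end: aatctattgatgaggatccTactcttttag
CYTB end: acaacctattaaaatgaAGAgtcttcgtag

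The oocyte label was borne out by the markers BMP15, at 1606 to 1940 FPKM, and GDF9, at 353 to 777 FPKM, and 12 of 13 oocyte markers averaged at least 1 FPKM (fragments per kilobase of transcript, normalised to the mapped fragments of the sample). Of 16 cumulus and granulosa markers, 15 were listed, only GREM1 averaged at least 1 FPKM, and INHA, AMH, KRT8 and KRT18 were at 0 in every sample. The summed cumulus and granulosa markers were nevertheless lower in control (2.34 to 3.16 FPKM) than in heat-stressed (3.67 to 4.30 FPKM) and NMN-supplemented oocytes (4.24 to 4.55 FPKM), which rested on GREM1. Without it the sum of the other 14 overlapped between the groups, at 0.610 to 0.682 FPKM in the controls, 0.398 to 1.43 FPKM under heat stress and 0.666 to 0.996 FPKM with NMN, and the part of these cells in the results was not tested. The number of genes above 0 was 17044 and 17163 in control against 15707 to 16440 in the other 4 samples. Heat stress replicate 1 stood apart, because LOC100513953, an entry of 132 bases on chromosome 14, was listed there at 40366 FPKM and at 0 in the other 5 samples. Depth in reads is unknown, since only FPKM were used. In bulk RNA, fewer cells of a type and less RNA per cell cannot be told apart.

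CYTB is the catalytic cytochrome b of complex III and holds both of its quinone-binding sites. Per unit of length it was the lowest of the 6 genes in every sample but control replicate 2. It reached 6678 and 5868 FPKM in control, 9105 and 8532 FPKM in heat-stressed and 9494 and 10576 FPKM in NMN-supplemented oocytes. The 3 groups did not overlap, and both NMN-supplemented samples were the highest. Group means were 6273 ± 572, 8819 ± 405 and 10035 ± 765 FPKM (SD, n = 2).

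COX1, the catalytic subunit of complex IV with both heme groups and a copper centre, was at 18282 and 18487 FPKM in control, 27550.3 and 21505 FPKM in heat-stressed and 25090.2 and 26055 FPKM in NMN-supplemented oocytes. The control samples were nearly equal and the lowest, and the heat-stressed samples lay on either side of the NMN-supplemented ones. COX2, which receives the electrons of cytochrome c, was at 15903 and 11029 FPKM in control, 23705 and 20982 FPKM in heat-stressed and 23022 and 23455 FPKM in NMN-supplemented oocytes. Here the control samples lay apart from each other but below all heated samples. COX3, a core subunit without a redox centre, was at 16210.4 and 17368 FPKM in control, 30038 and 22782 FPKM in heat-stressed and 22532 and 22059 FPKM in NMN-supplemented oocytes. Among the 6 genes it was the only one whose NMN-supplemented samples were both below the heat-stressed samples.

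ATP6, the membrane subunit through which protons pass in complex V, had the highest level of the 6 genes in every sample, with 22684 and 23490.3 FPKM in control, 36572 and 31491 FPKM in heat-stressed and 33286 and 34958 FPKM in NMN-supplemented oocytes. The control samples lay below all others, whose groups overlapped. ATP8, a short membrane subunit of the complex V stalk, was at 14941 and 4007 FPKM in control, 19486 and 9304 FPKM in heat-stressed and 28782 and 22974 FPKM in NMN-supplemented oocytes. Control and heat-stressed samples overlapped, and the NMN-supplemented samples were above both. The highest ATP8 value was 3.73 times the lowest within control and 2.09 times within heat-stressed oocytes, against at most 1.44 and 1.32 times for the other 5 genes. In the complex I genes this spread reached 2.45 times within control (ND4L) and 1.41 times within heat-stressed oocytes (ND3).

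**Figure D1:**
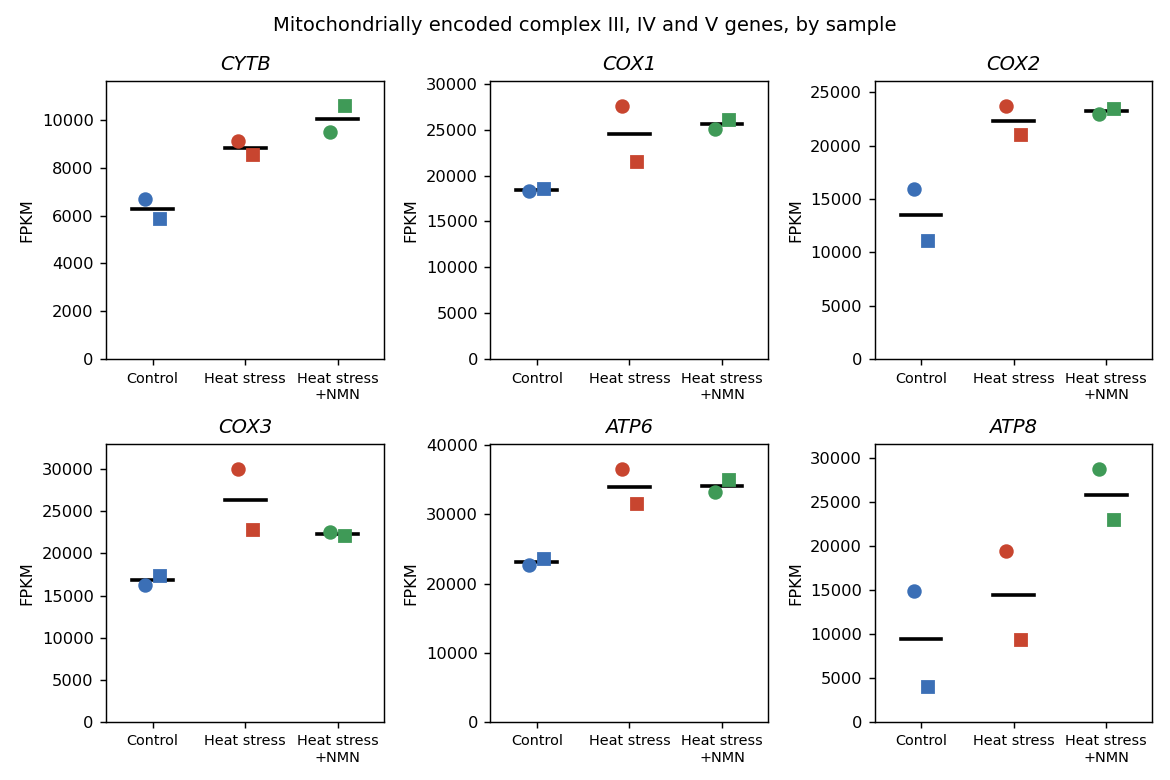
FPKM of the 6 genes in each of 6 samples (y axis, from 0; circles replicate 1, squares replicate 2, lines the mean of 2 samples) by group. Control samples are the lowest in every panel but that of ATP8, where control replicate 1 (14941 FPKM) lies above heat stress replicate 2 (9304 FPKM).

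By the mean level per unit of length over all 6 samples, ATP6 (30413 FPKM) came first, followed by COX1 (22828 FPKM), COX3 (21832 FPKM), COX2 (19683 FPKM), ATP8 (16582 FPKM) and CYTB (8376 FPKM). ATP6 was above COX1 in 6 of 6 samples. COX1 was above COX3 in 4 of 6 samples and COX3 above COX2 in 4 of 6, so the order of these complex IV genes was not the same throughout. ATP8 stood below COX2 and above CYTB in 5 of 6 samples each. Its place among the 6 genes ranged from 2 in NMN-supplemented replicate 1 to 6 in control replicate 2. Among all genes of a sample the 6 genes held ranks between 1 and 8. The complex I genes ran from 794 FPKM (ND4L) to 13401 FPKM (ND3).

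In the first comparison, which asks how heat alone altered the transcriptome, CYTB, COX1, COX2, COX3 and ATP6 were higher in both heat-stressed samples than in both control samples as deposited, although quantile normalization turned all but COX3 of them below control. Without overlap 5 of 6 genes were thus higher, where 31.6% of the 4713 tested genes were. The fold ran from 1.32 for COX1 to 1.68 for COX2 among these 5 genes, and all 3 complexes took part. The median log2 fold change of the 6 genes was 0.60, where that of all tested genes was 0.05 and that of the complex I genes 0.57. Without heat stress replicate 1, the sample with high LOC100513953, the median was 0.44.

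In the limma fit the same 5 genes had an unadjusted P under 0.05, where 12.7% of all tested genes did so with a higher level. On the log2(FPKM + 1) scale COX2 differed by 0.75 (SE 0.205, adjusted P = 0.142), COX3 by 0.64 (SE 0.17, adjusted P = 0.142) and ATP6 by 0.56 (SE 0.14, adjusted P = 0.137). CYTB differed by 0.49 (SE 0.14, adjusted P = 0.149) and COX1 by 0.41 (SE 0.16, adjusted P = 0.219), where the 95% interval of COX1 ran from 0.001 to 0.81. COX1 lost its unadjusted call when any sample other than heat stress replicate 2 was left out, including the NMN-supplemented samples, which enter only the estimate of the spread. After Benjamini-Hochberg adjustment over all tested genes 0 of the 6 passed 0.05, where 0.0% of all tested genes passed.

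Among the 6 genes ATP8 gave the largest value of this comparison, 0.80, and the least certain one, with an SE of 0.67, an adjusted P = 0.499 and a 95% interval from -0.87 to 2.47. It turned to -0.15 without control replicate 2 and to 1.75, with an unadjusted P under 0.05, without control replicate 1.

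The second comparison addresses what NMN added under heat, and no common direction was found. COX1, COX2 and ATP6 overlapped between the groups, and CYTB and ATP8 were higher without overlap. COX3 was lower without overlap, except when nuclear sums were made equal (0.16 on the log2 scale, or -0.17 with LOC100513953 left out). These counts, 2 of 6 higher and 1 of 6 lower, stand beside 35.9% and 17.6% of all tested genes. The median log2 fold change of the 6 genes was 0.07, where that of all tested genes was 0.08 and that of the complex I genes 0.30.

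None of the 6 genes had an unadjusted P under 0.05, where 13.6% of all tested genes did (7.15% higher and 6.45% lower), and none passed after adjustment, where 0.0% did (limma). ATP6 differed by 0.01 with a 95% interval from -0.34 to 0.36, COX2 by 0.06 with an interval from -0.45 to 0.57 and COX1 by 0.07 with an interval from -0.33 to 0.48. Each of these intervals extends by at least 0.33 to both sides of 0. CYTB differed by 0.19 (SE 0.14, adjusted P = 0.512), COX3 by -0.23 (SE 0.17, adjusted P = 0.512) and ATP8 by 0.93 (SE 0.67, adjusted P = 0.498). Without heat stress replicate 2 the COX3 value was -0.43 with an unadjusted P under 0.05, and COX1, COX2 and ATP6 turned to -0.11, -0.03 and -0.10. Of the 7 complex I genes, ND1 and ND6 had an unadjusted P under 0.05.

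COX3 and ND3 follow each other on the genome with a tRNA gene between them. Of all 13 genes, only these 2 had a lower mean in NMN-supplemented than in heat-stressed oocytes, a pair noticed after the values were seen. With equal nuclear sums they stood at 0.16 and 0.01 on the log2 scale, and at -0.17 and -0.32 with LOC100513953 left out. ND3, a complex I subunit at MT:10653-10998, was at 13401 and 9481 FPKM in heat-stressed and 8422 and 8893 FPKM in NMN-supplemented oocytes. Its log2 fold change of -0.38 (SE 0.22, adjusted P = 0.424) did not pass the test either.

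Compared with control, 6 of 6 genes were higher in both NMN-supplemented samples as deposited, which 43.5% of all tested genes were, while quantile normalization turned COX1 and COX3 lower. CYTB, COX2 and ATP6, 1 gene of each complex, rose at an adjusted P under 0.05, where 12.4% of all tested genes were called higher. CYTB rose by 0.68 (SE 0.14, adjusted P = 0.0305), COX2 by 0.81 (SE 0.205, adjusted P = 0.0458) and ATP6 by 0.56 (SE 0.14, adjusted P = 0.0446). The count at an adjusted P under 0.05 was 4 of 6 with equal nuclear sums that left out LOC100513953. It stayed at 3 with equal medians, a pseudocount of 0.1 FPKM, no trend or only the groups compared. The calls of CYTB, COX2 and ATP6 were all lost with a minimum of 0.1 FPKM, without a minimum and with quantile normalization. Equal nuclear sums that kept LOC100513953, where ATP8 alone of the 6 passed, and a block for replicate numbers ended all 3 calls as well. They also rested on all 4 samples compared, since 1 was left without control replicate 1 and 0 without control replicate 2, NMN-supplemented replicate 1 or NMN-supplemented replicate 2.

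At an unadjusted P under 0.05 the count was 5 of 6 genes, where 25.6% of all tested genes were higher. COX1 differed by 0.48 (SE 0.16, adjusted P = 0.0850) and ATP8 by 1.73 (SE 0.67, adjusted P = 0.112), with a 95% interval from 0.06 to 3.40 for ATP8. COX3 was at 0.41 (SE 0.17, adjusted P = 0.133) and missed the unadjusted threshold, which it passed in fits without either heat-stressed sample. Leaving out control replicate 2 brought ATP8 to 0.78 and ended its unadjusted call. The count fell to 3 without control replicate 2, to 2 without NMN-supplemented replicate 1 and to 1 without NMN-supplemented replicate 2. The median over the 6 genes was 0.62, where that of all tested genes was 0.11 and that of the complex I genes 0.89. This comparison shares its samples with both others and is not independent of them.

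**Figure D2:**
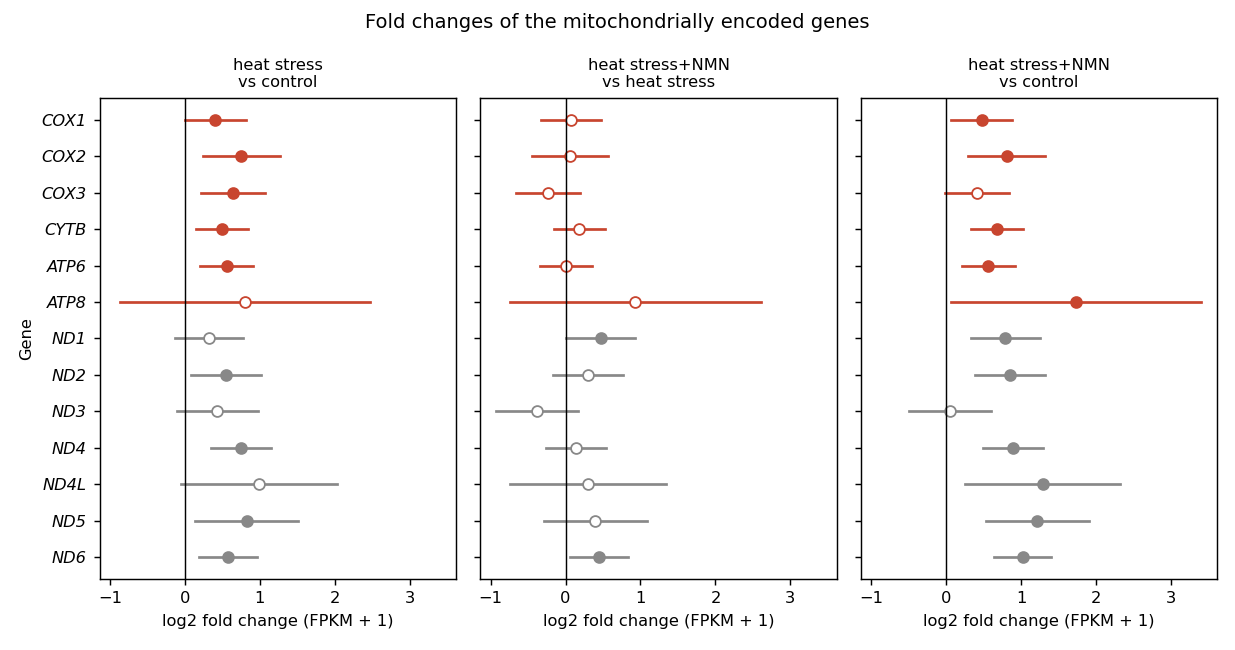
Log2 fold change of FPKM + 1 (x axis) of the 6 complex III to V genes (red) and the 7 complex I genes (grey) in the 3 comparisons, with 95% intervals of the limma fit (lines). Filled circles had an unadjusted P under 0.05, which 5 of 6, 0 of 6 and 5 of 6 red circles reached, and the ATP8 interval is the widest in each panel.

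Ratios between genes of 1 sample are not altered by a factor applied to the whole sample, and with 2 against 2 samples the exact permutation test cannot go below 0.3333. The ratio of ATP8 to ATP6, which lie on a common mRNA, was 0.659 and 0.171 in the controls, 0.533 and 0.296 under heat stress, and 0.865 and 0.657 with NMN. NMN-supplemented samples were above the heat-stressed samples by 0.93 on the log2 scale (SE 0.47, exact permutation P = 0.3333), and control overlapped both groups. The ratio of COX3 to ATP6 was 0.715 and 0.739 in the controls, 0.821 and 0.723 under heat stress, and 0.677 and 0.631 with NMN. The difference between NMN supplementation and heat alone was -0.24 on the log2 scale (SE 0.105, exact permutation P = 0.3333), without overlap.

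Between COX2 and COX1 the ratio was 0.870 and 0.597 in the controls, 0.860 and 0.976 under heat stress, and 0.918 and 0.900 with NMN. Control replicate 2 alone was low, and the difference under heat was 0.35 on the log2 scale (SE 0.29, exact permutation P = 0.6667). CYTB to COX1 lay between 0.317 and 0.406 in all 6 samples, with overlap in the comparison of heat stress with control and in that of NMN supplementation with heat stress. The ratio of COX1 to COX3 was not among those planned for description and was picked from all pairs after the values were seen. COX1 to COX3 was 1.13 and 1.06 in the controls, 0.917 and 0.944 under heat stress, and 1.11 and 1.18 with NMN. Heat-stressed oocytes were thus the lowest group for this ratio, by -0.24 on the log2 scale against control (SE 0.05), while NMN-supplemented oocytes were 0.30 above them (SE 0.05), both at the smallest exact permutation P of 0.3333.

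**Figure D3:**
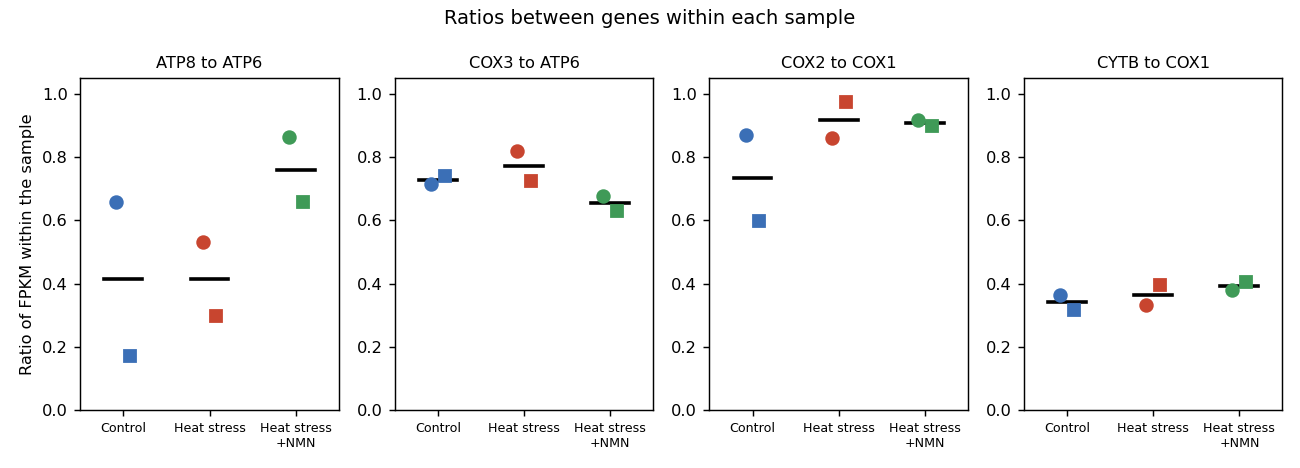
Ratio of the FPKM of 2 genes within each sample (y axis, from 0; circles replicate 1, squares replicate 2, lines the mean of 2 samples) by group. ATP8 to ATP6 runs from 0.171 to 0.865, whereas CYTB to COX1 stays between 0.317 and 0.406.

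Over all 15 pairs of the 6 genes, 3 ratios did not overlap between heat-stressed and control oocytes, against 15.4% of the 78 pairs that the 13 mitochondrial genes form. Between NMN supplementation and heat stress alone 12 of 15 ratios did not overlap (64.1% of the 78 pairs), and between NMN-supplemented and control oocytes 9 of 15 did not (65.4%). The pairs share genes and samples, so these counts carry no test. Across the 6 samples the highest ratio was 1.18 to 1.67 times the lowest for the 10 pairs without ATP8 and 3.44 to 5.54 times for the 5 pairs with it. Pearson's r of log2 levels over the 6 samples, which share libraries and depth, was 0.73 to 0.97 for pairs without ATP8 and 0.48 to 0.85 for pairs with it. Of the 6 genes ATP8 was therefore the one that varied most apart from the rest. It is also the shortest of them, with the lowest GC content (31.9%, against 38.5% to 44.0% in the other 5). With the complex I genes, its r ran from -0.02 (ND3) to 0.95 (ND1), and was 0.94 with ND4L.

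The 6 genes took 53.0% and 49.0% of the summed FPKM in the controls, 50.5% and 56.2% under heat stress, and 59.5% and 59.5% with NMN. With LOC100513953 left out of the sum, heat stress replicate 1 came to 58.6%, and the heat-stressed samples then lay between the other groups without overlap. The summed FPKM of the 6 genes was 94698 and 80250 in the controls, 146456 and 114596 under heat stress, and 142207 and 140076 with NMN. Relative to nuclear genes other than LOC100513953, that made 1.58 and 1.28 times their sum in the controls, 2.13 and 1.98 times under heat stress, and 2.30 and 2.35 times with NMN. In contrast, their share of the 13 mitochondrial genes stayed between 78.5% and 80.9% in all 6 samples. A near constant share hid shifts inside it, since ATP8 made up 4.99% of the 6 genes in control replicate 2 and 20.2% in NMN-supplemented replicate 1.

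**Figure D4:**
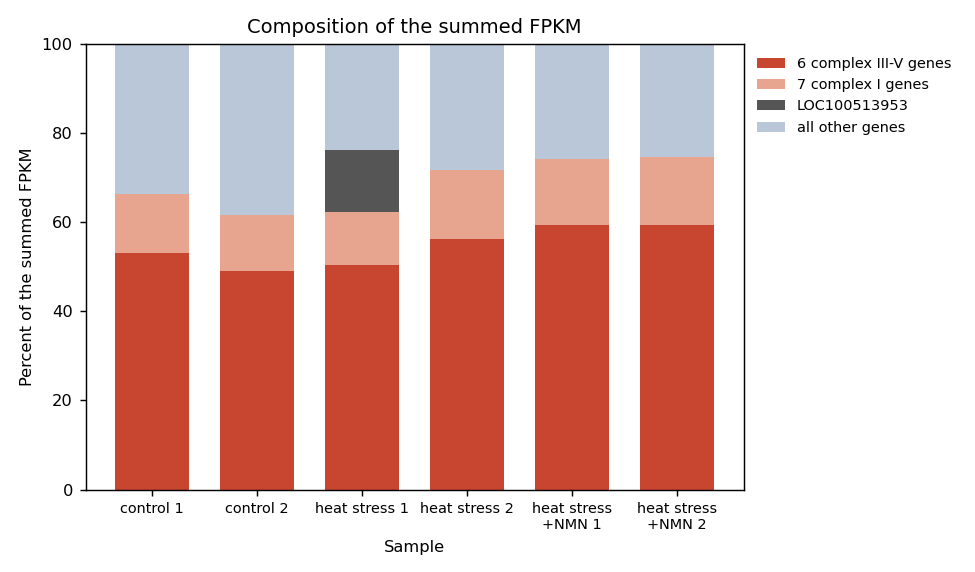
Percent of the summed FPKM (y axis) in each of 6 samples that came from the 6 complex III to V genes, the 7 complex I genes, LOC100513953 and all other genes. The 6 genes take 49.0% to 59.5%, and LOC100513953 takes 13.9% in heat stress replicate 1 and none elsewhere.

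With genes this abundant, the scaling of the samples bears on every fold change. When each sample was scaled to the same summed FPKM of nuclear genes, the median log2 fold change of the 6 genes became 0.23 for heat stress against control and 0.455 for NMN supplementation against heat stress. The median of all tested genes moved as well, to -0.22 and 0.35. Without LOC100513953 in that sum the values were 0.56 and 0.12 for the 6 genes and 0.02 and 0.12 for all tested genes. Quantile normalization, which gives genes of equal rank an equal value, brought the 6 genes to -0.18 in the first comparison and 0.04 in the comparison of NMN supplementation with control.

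**Figure D5:**
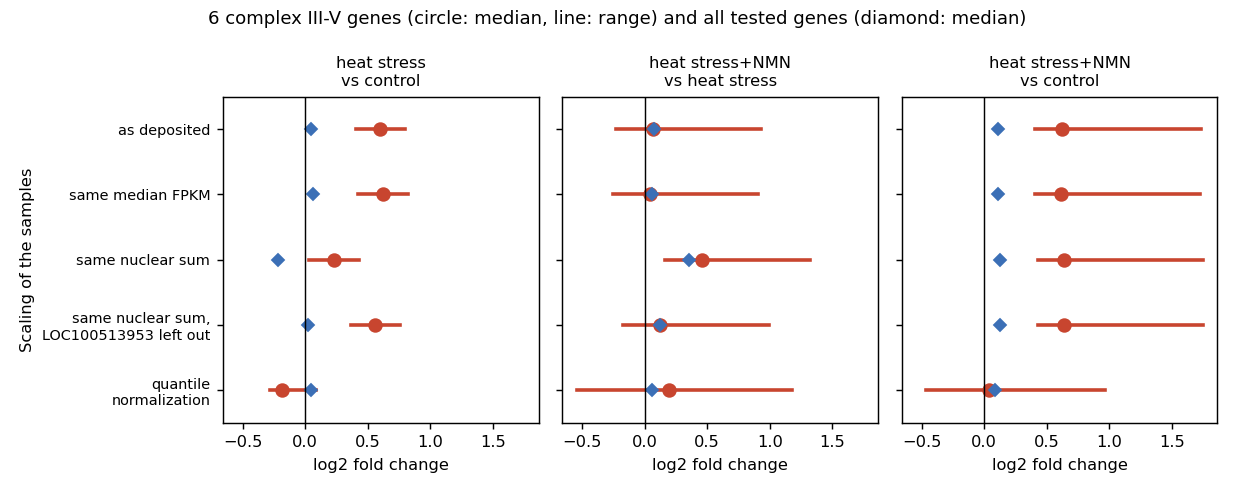
Log2 fold change (x axis) of the 6 genes (circle median, line lowest to highest) and median of all tested genes (diamond) under 5 scalings of the samples, for the 3 comparisons. As deposited, the circles stand at 0.60, 0.07 and 0.62, and only quantile normalization puts a circle below 0, at -0.18 for heat stress against control.

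The nuclear genome encodes most subunits of the same complexes, and these were listed at far lower levels. Of 44 such genes in complexes III to V, 26 were listed and 9 reached a mean of 1 FPKM, the highest being COX7C with 8.09 FPKM. The minimum itself favours lower calls here, since ATP5D and ATPIF1 of complex V passed it only through control, so the 26 genes were counted in the limma fit without a minimum. In heat-stressed against control oocytes 8 of 26 were lower at an unadjusted P under 0.05, where 6.72% of all genes in that fit were, and 1 of 26 was higher (4.90% of all genes). In NMN-supplemented against heat-stressed oocytes 3 of 26 were lower (4.29% of all genes), and against control 7 of 26 were (9.9%). With a minimum of 0.1 FPKM, 8 of 24 were lower in the first comparison (8.99% of all genes in that fit) and 1 of 24 was higher (7.02%). In the second 3 of 24 were lower (5.64%), and in the third 7 of 24 were (14.5%). After adjustment 0 passed in any comparison, without a minimum or with that of 0.1 FPKM. Fold changes of genes this low are understated by the added 1 FPKM.

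COX7C, a small complex IV subunit, was at 10.8 and 10.8 FPKM in control, 7.82 and 8.51 FPKM in heat-stressed and 4.997 and 5.66 FPKM in NMN-supplemented oocytes. Its groups did not overlap, and the NMN-supplemented samples were the lowest. In the fit with the minimum it differed by -0.36 under heat (adjusted P = 0.176), by -0.535 between NMN supplementation and heat alone (adjusted P = 0.222), and fell by 0.90 between NMN supplementation and control (adjusted P = 0.0210). In that last comparison COX6A1 of complex IV fell by 0.99 (adjusted P = 0.0412) and ATP5G2, a subunit of the c-ring of complex V, fell by 0.93 (adjusted P = 0.0267). None of these 3 calls was left without control replicate 2, without NMN-supplemented replicate 1, without NMN-supplemented replicate 2 or without a minimum. CYCS, the gene of the electron carrier cytochrome c, differed by -0.09, -0.09 and -0.18 in the 3 comparisons and passed in none.

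Of the assembly factors, 3 of 23 for complex IV, 3 of 4 for complex V and 0 of 6 for complex III were tested. COX17, the copper chaperone of complex IV assembly, was at 2.44 and 2.55 FPKM in control, 1.13 and 1.39 FPKM in heat-stressed and 1.06 and 1.50 FPKM in NMN-supplemented oocytes. Both heated groups lay below control, by -0.63 under heat (adjusted P = 0.127) and by -0.625 with NMN (adjusted P = 0.0390). Only the latter passed the threshold, and this call was not followed in fits without a minimum or with samples left out. FMC1, an assembly factor of complex V, differed by -0.88 under heat (adjusted P = 0.183), with an unadjusted P under 0.05.

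Of 24 genes of mitochondrial transcription and mRNA stability, all were listed and 9 were tested. GRSF1, which binds mitochondrial RNA and takes part in its processing, was at 7.37 and 7.60 FPKM in control, 12.6 and 10.9 FPKM in heat-stressed and 14.1 and 13.4 FPKM in NMN-supplemented oocytes. It was the 1 of 9 genes with an unadjusted P under 0.05 in heat-stressed against control oocytes, no larger a share than the 12.7% of all tested genes that were higher (a log2 fold change of 0.585, adjusted P = 0.118), and it rose in NMN-supplemented against control oocytes by 0.80 (adjusted P = 0.0210). TRMT10C, a subunit of mitochondrial RNase P that frees the 5′ ends of tRNAs, was at 3.90 and 4.37 FPKM in control, 2.35 and 4.15 FPKM in heat-stressed and 1.61 and 1.82 FPKM in NMN-supplemented oocytes. It differed by -0.615 between NMN supplementation and heat alone (adjusted P = 0.352) and fell against control by 0.92 (adjusted P = 0.0404). The adjusted calls of GRSF1 and TRMT10C were not followed in fits without a minimum or with samples left out. FASTKD2 was above control with NMN at an unadjusted P under 0.05 (adjusted P = 0.0613).

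Copies of mitochondrial sequence lie in nuclear chromosomes, and fragments of these genes could be assigned to them. In Sscrofa11.1, blastn found 4 to 8 nuclear copies of each gene that cover at least 95% of it. Identity was taken over the whole match, which runs past the gene, so identity over each gene itself was not measured. The closest match over ATP8, on chromosome 9 (9:4701655-4702188), was 98.7% identical along 534 bases. Those over the other 5 genes were 90.6% to 92.4% identical along 1416 to 11012 bases. COX1, COX2 and CYTB had the same closest match, on chromosome 2. Of the listed genes, 13 overlap a nuclear match of at least 100 bases and 80% identity, and the highest of their values was 1.89 FPKM, in SLC6A5. Overlap was counted over the whole span of a gene, introns included, so these values need not come from the copies. How the authors placed fragments that fit both genomes is not given in the sources used here, and its part in the ATP8 values was not tested.

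Among 4700 tested nuclear genes, those most like the 6 genes, by Pearson's r over 6 samples between log2(FPKM + 1) and the mean log2 FPKM of the 6 genes, were TMEM106B (0.989), CPEB4 (0.987), SLC30A1 (0.987), C2H5orf15 (0.986) and LOC110260073 (0.986). An r above 0.9 was found for 322 genes (6.85%). SLC30A1, a zinc exporter, was at 7.96 and 5.25 FPKM in control, 16.9 and 11.0 FPKM in heat-stressed and 13.7 and 15.7 FPKM in NMN-supplemented oocytes. Like the 6 genes in sum, it was lowest in control replicate 2 and highest in heat stress replicate 1.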

How the data were processed

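Total RNA of pooled oocytes was made into mRNA libraries and sequenced in pairs, after which the authors used cutadapt for trimming and tophat2 for alignment to the pig genome. The submitters' processing notes name Cufflinks 2.2.1, Cuffnorm and Cuffdiff. The authors deposited FPKM per gene and sample. Whether Cuffnorm scaled the libraries further, how fragments shared by overlapping genes were divided and whether strand was used is not given in the sources used here. FPKM of genes as short as ATP8 and LOC100513953 also depend on the correction for fragment length. The authors' own fold changes, P-values, q-values and group FPKM, in the same table and in separate lists, were not used. Samples were grouped by their treatment labels.

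FPKM were log2-transformed after adding 1 FPKM, and the 4713 genes with a mean of at least 1 FPKM were tested in 1 model of 3 groups with limma 3.58.1 in R 4.3.3 (empirical Bayes with a trend on mean expression, two-sided, Benjamini-Hochberg adjustment over all tested genes). Ratios were tested with two-sided exact permutation tests in scipy 1.17.1. The fit was tested on simulated data. Sequences and annotation came from the RefSeq record of Sscrofa11.1, and copies were sought with blastn 2.17.0, counting overlaps with listed genes from 80% identity and 100 bases. Other steps used Python 3.11.15. Genes named besides the 6 were the complex I genes, up to 3 genes with the smallest unadjusted P under 0.05 in each list and comparison, the 5 genes most alike over samples, LOC100513953 and cell type markers. CYCS, SLC6A5 and the genes that passed the minimum only through control are named outside this rule. The 6 genes and the lists were chosen with earlier results of these data known. Alternatives were the pseudocount, the minimum FPKM, 4 other scalings, a block for replicate numbers, fits of the compared groups alone, no trend, and leaving out each sample.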

Additional observations from a re-analysis of the deposited data

How the results depend on the processing

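With 2 samples a group and unknown depth, neither small differences nor their absence could be shown for these genes. Counts below are of the 6 genes. For heat stress against control the count at an unadjusted P under 0.05 (5 as reported) was 0 with quantile normalization, 0 with equal nuclear sums and 3 with only the groups compared, and 4 to 5 when each sample was left out in turn. For NMN supplementation against heat stress (0 as reported) it was 3 with quantile normalization, 1 with equal nuclear sums, and 0 to 1 with samples left out. For NMN supplementation against control (5 as reported) it was 2 and 2 with these scalings, and 1 to 6 with samples left out. At an adjusted P, equal nuclear sums called 1 gene (ATP8) in the second comparison. In the third the count (3 as reported) was 0 with a minimum of 0.1 FPKM, 0 without a minimum and 0 with quantile normalization. It was 1 with equal nuclear sums, namely ATP8, which was none of the 3 as reported. With LOC100513953 left out of those sums, the counts at an unadjusted P were 5, 0 and 6 in the 3 comparisons. At an adjusted P they were 0, 0 and 4.

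The median log2 fold change became -0.184 (quantile) and 0.226 (nuclear sum) in the first comparison, 0.455 (nuclear sum) in the second and 0.042 (quantile) in the third. With samples left out it ranged from 0.444 to 0.752, from -0.065 to 0.19 and from 0.564 to 0.678. Quantile normalization reversed COX1 (-0.246), COX2 (-0.147), CYTB (-0.282), ATP6 (-0.158) and ATP8 (-0.211) in the first comparison and COX1 (-0.082) and COX3 (-0.461) in the third. These genes hold the top ranks of each sample, and this method sets equal ranks equal. In heat stress replicate 1 LOC100513953 stood above all of them, so that ATP6 ranked 2 there and 1 in every other sample. The part of this entry in the reversals was not tested. In the second comparison equal nuclear sums turned COX3 to 0.159 (-0.174 with LOC100513953 left out), and equal medians turned ATP6 to -0.018. Leaving out samples gave ATP8 -0.15 to 1.748 in the first comparison, and COX1 -0.108 to 0.25, COX2 -0.029 to 0.147 and ATP6 -0.10 to 0.115 in the second. Log2 ratios then ranged from -0.731 to 1.218 (ATP8 to ATP6), -0.007 to 0.176 (COX3 to ATP6) and -0.043 to 0.221 (CYTB to COX1) in the first comparison, and from -0.102 to 0.079 (COX2 to COX1) and -0.018 to 0.246 (CYTB to COX1) in the second. A sample left alone in its group was assumed to vary like the others. Other causes were not tested.

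Samples of the same replicate number did not deviate together (correlations -0.032, -0.0139 and 0.00805), so no pairing was seen in the values. Whether samples of the same number were handled together cannot be told from this. With the replicate number as a block, the adjusted count of the third comparison was 0, and COX1 lost its unadjusted call in the first and the third.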
